A study of Homo sapiens with 8 samples.

Results

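The genes described are 35 aminoacyl-tRNA synthetase genes of the nuclear genome, 19 for cytosolic and 16 for mitochondrial enzymes, among 14528 named genes in the deposited table. They were chosen by symbol from a fixed list, and a symbol ending in 2 marked the mitochondrial enzymes. Polyadenylated RNA was sequenced from SQ20B cells, an established line from a head and neck squamous cell carcinoma, in 4 normoxia libraries and 4 libraries from cells kept in 0.5% oxygen for 16 h. Both groups were grown in the same DMEM medium with serum. The oxygen level of the normoxia group is not given beyond its name, and every value comes from this single line. The authors combined the libraries of each condition, so that 1 FPKM value per transcript and condition was available. FPKM counts the fragments of a transcript scaled by its length and by the mapped fragments of the library. No spread between replicates could be computed from these values, and the authors' own test columns were not used, so each difference below is a description of the pooled values without error or test. FPKM is a relative unit, so that a change in the total RNA of a cell cannot be told apart from these values.

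Aminoacyl-tRNA synthetases join each amino acid to its tRNA at the cost of ATP, and so supply the ribosome with its substrates. Class 1 and class 2 enzymes differ in the fold of the catalytic domain. Most amino acids have separate enzymes for the cytosol and for the mitochondrion, where the imported enzyme serves the translation of respiratory chain subunits. GARS1 and KARS1 each supply both compartments. Several cytosolic enzymes are held in a multisynthetase complex by the scaffold proteins AIMP1, AIMP2 and EEF1E1. Transcription of many cytosolic synthetase genes is known to respond to ATF4, the transcription factor of the integrated stress response.

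Promoters show a sequence that sets part of the cytosolic genes apart. Promoter sequences from RefSeq (GRCh38.p14), covering 250 bases before to 50 bases after the start of transcription, were matched for 30 of the 35 genes, and AARS2, LARS1, VARS1, VARS2 and YARS1 were not matched. The letters TGATGCAA, the core of elements bound by dimers of ATF4 and C/EBP proteins, were searched on both strands. They were found in 6 of 16 cytosolic and 0 of 14 mitochondrial promoters, against 0.923% of 27305 promoters of all genes. The 6 windows are shown because they mark the genes compared further below, each 5′ to 3′ on the strand of the gene, with the match in capitals (TTGCATCA is the same word read on the other strand).
AARS1, chr16:70289675-70289704: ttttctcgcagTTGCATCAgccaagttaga
CARS1, chr11:3057407-3057436: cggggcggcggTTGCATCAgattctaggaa
IARS1, chr9:92293692-92293721: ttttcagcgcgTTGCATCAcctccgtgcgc
MARS1, chr12:57488053-57488082: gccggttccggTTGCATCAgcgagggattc
NARS1, chr18:57621804-57621833: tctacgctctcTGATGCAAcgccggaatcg
TARS1, chr5:33440956-33440985: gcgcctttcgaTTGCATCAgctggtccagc

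MARS1 and TARS1 lie on the plus strand of these coordinates and the other genes on the minus strand. In CARS1, IARS1, MARS1, NARS1 and TARS1 the match began within 14 bases of the annotated start, and in AARS1 it began 187 bases before it. With any base allowed at the sixth position (TGATGNAA), which includes the first word, YARS2 was the only further gene, and 3.67% of all promoters matched. The core letters of the hypoxia response element were ACGTG in 8 of 30 promoters (26.7%, against 21.6% of all promoters) and GCGTG in 23 of 30 (76.7%, against 36.3%). The E-box CACGTG, which contains ACGTG, was found in 4 promoters, those of CARS2, EARS2, IARS1 and MARS2 (13.3%, against 7.43%). The reference promoters were taken whether or not their genes were expressed in these cells, and were not matched for base composition. Whether the higher shares go with base composition was not tested. These matches describe the letters in the windows and do not show that a factor was bound.

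Hypoxic cells contained less mRNA for most synthetases relative to other transcripts. The change of a gene was taken as log2 of its hypoxia FPKM plus 0.1 over its normoxia FPKM plus 0.1, after summing all listed transcripts of the gene. All 35 genes exceeded the limit of a mean of 0.5 FPKM. As deposited, 32 of the 35 changes lay below 0. The median log2 change was then -0.40, against -0.07 for 12106 named genes past the same limit, of which 56.4% lay below 0. After rescaling both columns to the same sum, 14 of 19 cytosolic and 12 of 16 mitochondrial genes lay below 0, and the median of all genes was 0.15. The share of all genes below 0 was not computed under other scalings. A change of at least 1.5-fold downward was found for 9 of 35 genes (25.7%), against a background percentage of 11.2 of all genes. With equal column sums these were 4 of 35 and 4.99% of all genes, and with quantile normalization 5 of 35 and 8.44%. No synthetase was higher by 1.5-fold, against 9.95% of all genes. Together the synthetases summed to 2517 FPKM in normoxia and 1857 in hypoxia, or 0.470% and 0.405% of all listed FPKM.

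The reference values of all genes moved with abundance. For genes with a mean of 20 to 100 FPKM the median was -0.19 on the log2 scale, with 13.1% at least 1.5-fold lower. Above 100 FPKM these values were -0.29 and 18.2%. Of 17 synthetases with a mean between 20 and 100 FPKM, 3 were lower by 1.5-fold, with a median of -0.31. Of the 5 above 100 FPKM, 1 was, and their median was -0.52. Below 5 FPKM, where all genes had a median of 0.09 and 9.1% were lower by that fold, 3 of 7 synthetases were and their median was -0.55. The synthetase medians thus lay below those of all genes in each of these ranges, and in that of 5 to 20 FPKM as well (-0.39 against -0.06).

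**Figure D1:**
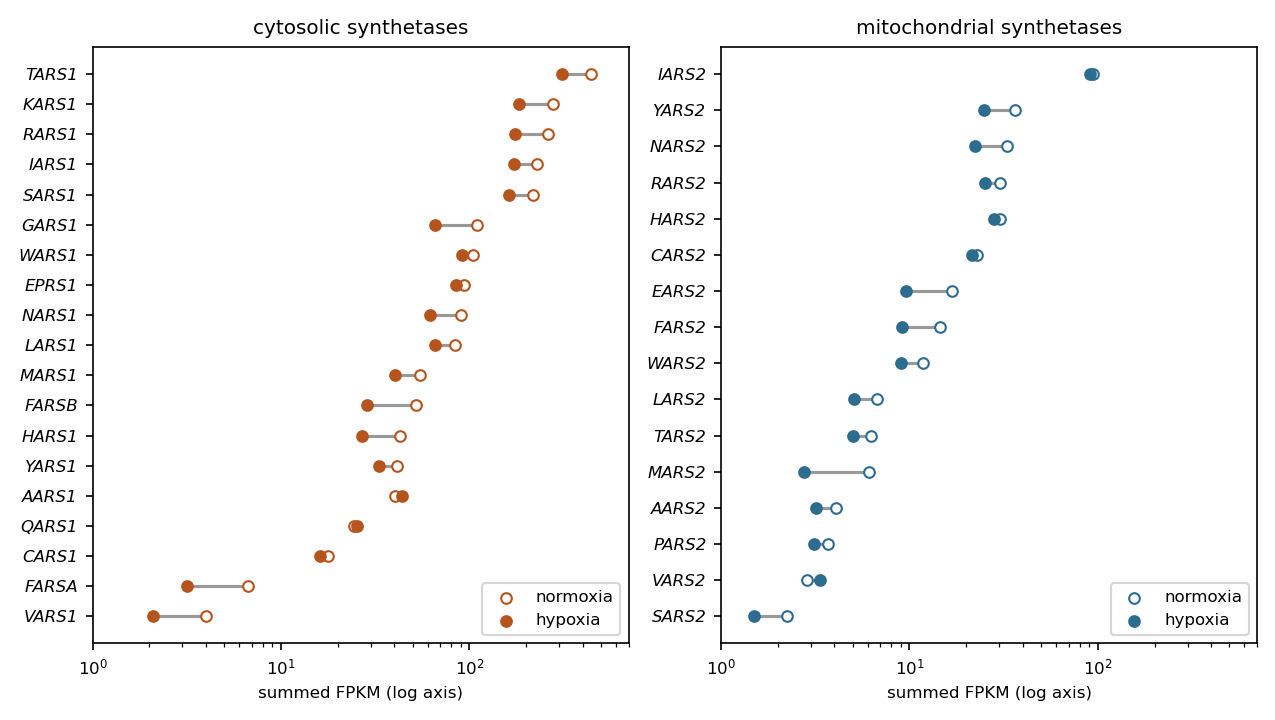
Summed FPKM of each synthetase gene in normoxia (open) and hypoxia (filled), 1 pooled value of 4 libraries per condition, on a log axis, with genes ordered by their normoxia value. Only AARS1, QARS1 and VARS2 have the filled symbol to the right of the open one.

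The 6 cytosolic genes past 1.5-fold were FARSA, VARS1, FARSB, GARS1, HARS1 and KARS1. FARSA, the catalytic subunit of phenylalanyl-tRNA synthetase, had 6.65 FPKM in normoxia against 3.15 in hypoxia and was thus 2.07-fold lower (-1.05 on the log2 scale). FARSB, the other subunit of the same tetramer, had 52.0 and 28.7 FPKM (-0.86). Both subunits were thus lower, although FARSB exceeded FARSA by 7.82-fold in normoxia and 9.09-fold in hypoxia on this length-scaled unit. VARS1, for valine, had 4.02 and 2.10 FPKM (-0.91). Its transcript was listed only on a haplotype version of chromosome 6 (6_ssto_hap7, 3076107 to 3093568), where reads can also match the other versions of the region. GARS1, which charges glycine in both compartments, had 109.7 and 65.8 FPKM (-0.74). HARS1, for histidine, had 42.7 and 27.1 FPKM (-0.66). KARS1, which charges lysine in both compartments, had 278 and 184 FPKM (-0.60). The last 3 did not hold 1.5-fold under equal sums (-0.51, -0.43 and -0.37) or quantile normalization (-0.49, -0.54 and -0.34).

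Just short of the 1.5-fold limit, which is 0.585 on the log2 scale, lay RARS1, for arginine, with 261 and 175 FPKM (-0.58). NARS1, for asparagine, had 90.1 FPKM in normoxia and 61.7 in hypoxia (-0.54). TARS1, for threonine, was the most abundant synthetase of the table, with 444 and 309 FPKM (-0.52). These genes were lower by 1.44-fold to 1.49-fold, with abundant transcripts in both conditions. MARS1, for methionine, had 54.6 and 40.3 FPKM (-0.44). It is among the genes in which the study examined a retained intron, which FPKM of annotated transcripts does not resolve. Its gene model overlaps that of DDIT3 on the other strand of chromosome 12 by 982 bases (GRCh37). The libraries were stranded and the authors' software was run with standard parameters. Whether it assigned fragments by strand is not given in the sources used here. DDIT3, itself a gene of the stress response, had 48.6 and 28.6 FPKM (-0.76). Opposite-strand overlaps were also found for HARS1, YARS1, AARS2 and YARS2, and with neighbours that start nearby for AARS1, KARS1, WARS1, CARS2, EARS2 and HARS2.

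SARS1 (218 and 162 FPKM), IARS1 (229 and 173), LARS1 (83.5 and 65.6) and YARS1 (41.1 and 33.1) had log2 changes between -0.42 and -0.31. They charge serine, isoleucine, leucine and tyrosine. WARS1, for tryptophan and known for its induction by interferon, had 104.5 FPKM in normoxia and 91.1 in hypoxia, and EPRS1, the fused enzyme for glutamate and proline, had 93.9 and 85.0. CARS1, for cysteine, had 17.8 and 16.2 FPKM. The changes of WARS1 (-0.20), EPRS1 (-0.14) and CARS1 (-0.13) were small and turned positive under equal column sums (0.03, 0.08 and 0.09). They still lay below the median of all genes under that scaling, which was 0.15. AARS1, for alanine, had 40.4 FPKM in normoxia and 44.0 in hypoxia (0.12). QARS1, for glutamine, had 24.3 and 25.2 (0.05). These were the only cytosolic genes with a higher value in hypoxia as deposited.

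The 3 mitochondrial genes past 1.5-fold were MARS2, EARS2 and FARS2. MARS2, for methionine, had 6.13 FPKM in normoxia against 2.76 in hypoxia and was thus 2.17-fold lower (-1.12). This was the lowest change among the 35 genes, with 1.77% of all genes lower still. EARS2, for glutamate, had 16.8 and 9.60 FPKM (-0.80). FARS2, for phenylalanine, had 14.6 and 9.14 FPKM (-0.67). EARS2 and FARS2 fell short of 1.5-fold under equal sums (-0.57 and -0.44), and FARS2 also under quantile normalization (-0.58).

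NARS2 (33.1 and 22.2 FPKM, -0.58), SARS2 (2.24 and 1.495, -0.55) and YARS2 (36.2 and 24.9, -0.53) lay next to the limit, the enzymes for asparagine, serine and tyrosine. LARS2 (-0.39), WARS2 (-0.39), AARS2 (-0.35), TARS2 (-0.33), RARS2 (-0.27) and PARS2 (-0.24) formed a middle group with normoxia levels from 3.69 to 30.2 FPKM. IARS2, the most abundant mitochondrial synthetase, had 93.7 FPKM in normoxia and 90.6 in hypoxia (-0.05). HARS2 had 30.1 and 28.2 FPKM (-0.09) and CARS2 22.8 and 21.5 (-0.08). These were nearly level, and each of the 3 turned positive under equal sums (0.18, 0.13 and 0.14), where the median of all genes was 0.15. VARS2 was the highest of the 35 genes, with 2.87 FPKM in normoxia and 3.37 in hypoxia (0.22). Like VARS1, it was listed only on a haplotype sequence of chromosome 6 (6_mann_hap4).

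Cytosolic and mitochondrial genes differed in level but hardly in change. The median normoxia level was 83.5 FPKM for cytosolic and 13.2 FPKM for mitochondrial genes. Their median log2 changes were -0.44 and -0.37, a difference of -0.07 that became 0.08 under quantile normalization. The changes ranged from -1.05 to 0.12 in the cytosolic and from -1.12 to 0.22 in the mitochondrial genes, so the groups overlapped almost completely. At least 1.5-fold lower were 31.6% of the cytosolic and 18.8% of the mitochondrial genes, against 11.2% of all genes. The cytosolic share of all listed FPKM was 0.410% in normoxia and 0.347% in hypoxia, and the mitochondrial share was 0.0600% and 0.0576%.

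Partners that charge the same amino acid were set side by side in 16 pairs, with EPRS1 used for both glutamate and proline and the mean of FARSA and FARSB used for phenylalanine. The cytosolic gene had the higher change in 9 pairs and the mitochondrial gene in 7. The median difference was 0.04. With a pseudocount of 1 the cytosolic gene had the higher change in 7 of the 16 pairs, and with quantile normalization in 10. In 4 pairs (cysteine, leucine, asparagine and proline) the partners lay within 0.1 of each other on the log2 scale. In 3 pairs they were at least 1.5-fold apart, and these pointed in different directions. For methionine the mitochondrial gene was the lower one (-1.12 for MARS2 and -0.44 for MARS1), and for glutamate likewise (-0.80 for EARS2 and -0.14 for EPRS1). For valine the cytosolic gene was the lower one (-0.91 for VARS1 and 0.22 for VARS2), a pair that rests on haplotype sequences. The ratio of MARS1 to MARS2 FPKM was 8.91 in normoxia and 14.6 in hypoxia. CARS2 exceeded CARS1 in both conditions. With the FPKM of FARSA and FARSB summed, the cytosolic gene was the more abundant partner in the other 15 pairs in normoxia. FARSA alone had 6.65 FPKM in normoxia, below FARS2 with 14.6. In hypoxia HARS1 and VARS1 also lay below their partners, with ratios of 0.960 and 0.623.

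**Figure D2:**
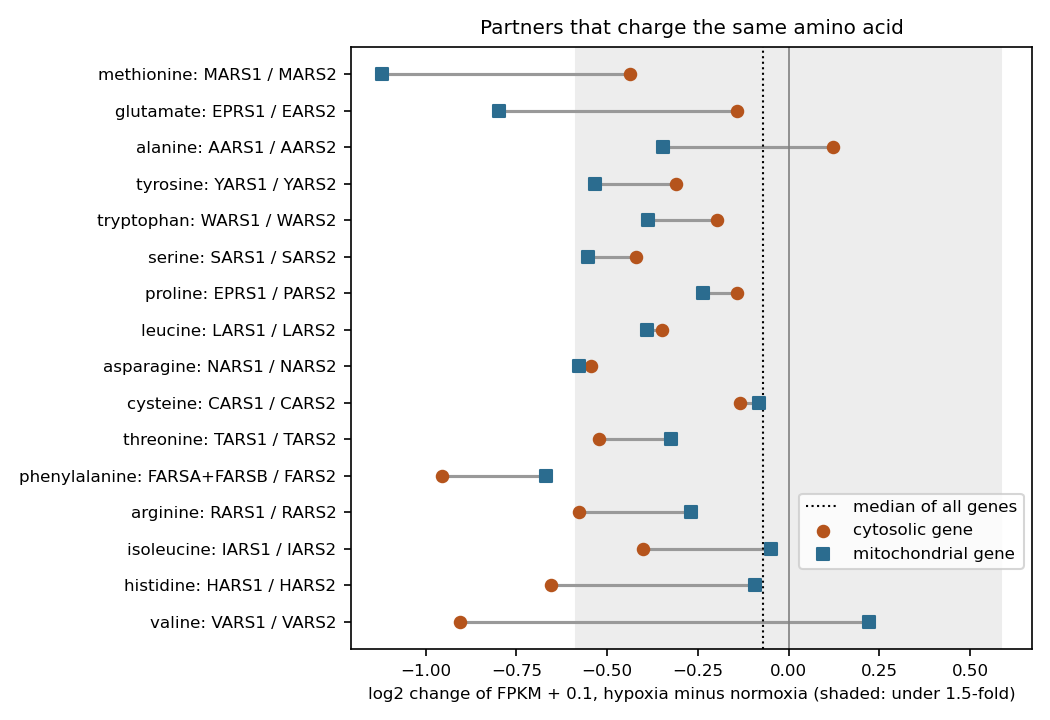
Log2 change of FPKM plus 0.1 for the cytosolic (circle) and mitochondrial (square) gene of each amino acid, ordered by the difference between them, with changes under 1.5-fold shaded and the median of all genes dotted. Methionine and glutamate at the top and valine at the bottom are the 3 pairs at least 1.5-fold apart.

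HARS1 and HARS2 start 107 bases apart on opposite strands of chromosome 5, with GENCODE gene models that overlap there (chr5:140052620-140071122 and chr5:140071015-140078890, GRCh37). They share this start region, but HARS1 had a log2 change of -0.66 and HARS2 of -0.09. The ratio of HARS1 to HARS2 was 1.42 in normoxia and 0.960 in hypoxia. In all, 10 synthetase genes had a protein-coding neighbour on the other strand whose start lay within 1000 bases. FARS2 and LYRM4, an iron-sulfur assembly factor, were both lower (-0.67 and -0.44), as were SARS2 and MRPS12, a protein of the mitochondrial ribosome (-0.55 and -0.81), and KARS1 and TERF2IP (-0.60 and -0.55). RARS2 and ORC3, of the origin recognition complex, also lay close (-0.27 and -0.23), and so did WARS1 and WDR25 (-0.20 and -0.07). CARS2 and ING1 lay on either side of 0 (-0.08 and 0.19). EARS2 and UBFD1, with starts 10 bases apart, differed in direction (-0.80 and 0.16), and AARS1 and DDX19B differed the other way (0.12 and -0.35). Neighbours with a shared start region thus moved together in some cases and apart in others.

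Synthetases that respond to ATF4 by textbook knowledge had smaller decreases than the other cytosolic genes. That subgroup of 12 genes (AARS1, CARS1, EPRS1, GARS1, IARS1, LARS1, MARS1, NARS1, SARS1, TARS1, WARS1 and YARS1) had a median of -0.37, and 1 gene, GARS1, was lower by 1.5-fold. The other 7 (FARSA, FARSB, HARS1, KARS1, QARS1, RARS1 and VARS1) had a median of -0.66, and 5 were lower by 1.5-fold. Of all genes, 11.2% were lower by that fold, against 8.33% of the 12 and 71.4% of the 7. The ranges overlapped, from -0.74 to 0.12 and from -1.05 to 0.05. Under equal column sums the medians were -0.15 and -0.43, and none of the 12 and 3 of the 7 genes were past that fold. The share of all genes lower by it was then 4.99%. The 6 genes with TGATGCAA in the promoter had a median of -0.42, and none was lower by 1.5-fold, against -0.59 and 5 of 10 for the other cytosolic genes with a matched promoter. All 6 are among the 12 genes above, so this comparison is not independent of the previous one. Of the 12, EPRS1, WARS1, SARS1 and GARS1 had a matched promoter without these letters, with changes of -0.14, -0.20, -0.42 and -0.74. In the sequences printed above, AARS1 and CARS1 had the highest changes of the 6 genes, and NARS1 the lowest. Over all synthetases with a matched promoter, the medians were -0.42 with and -0.53 without GCGTG. For ACGTG they were -0.36 and -0.48.

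By structural class, the 9 cytosolic class 2 genes had a median of -0.60 and 5 were lower by 1.5-fold. The 9 class 1 genes had a median of -0.35 and 1 was, VARS1. These are 55.6% of the class 2 and 11.1% of the class 1 genes, against 11.2% of all genes. FARSA, FARSB, HARS1 and KARS1 passed 1.5-fold both here and in the ATF4 split, so these splits are not independent. Under equal column sums 2 class 2 genes and 1 class 1 gene were past that fold, with medians of -0.37 and -0.12. The share of all genes lower by that fold was then 4.99%. EPRS1 carries a domain of each class and was left out of this split. No such order was found among the mitochondrial genes, with medians of -0.39 for class 1 and -0.35 for class 2.

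The 7 synthetases of the multisynthetase complex had a median of -0.40, and KARS1 alone passed 1.5-fold (14.3%, against 11.2% of all genes). Their 3 scaffolds were all lower, under each scaling tried, and 56.4% of all genes lay below 0 as deposited. AIMP2, which holds several of the enzymes together, had 80.2 FPKM in normoxia and 31.6 in hypoxia (-1.34, or 2.53-fold lower), below every synthetase. EEF1E1 had 148 and 85.8 FPKM (-0.78) and AIMP1 59.8 and 40.0 FPKM (-0.58). The ratio between scaffold and enzyme mRNAs was thus not constant. The 12 cytosolic genes outside the complex had a median of -0.53.

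Genes that act beside the mitochondrial synthetases were lower in hypoxia in 8 of 8 cases under each scaling tried, 5 of them by 1.5-fold as deposited and 1 under equal column sums. Of all genes, 56.4% lay below 0 as deposited. By 1.5-fold, 11.2% of them were lower as deposited and 4.99% under equal column sums. QRSL1, a subunit of the amidotransferase that makes mitochondrial glutaminyl-tRNA in the absence of a separate synthetase, had 17.9 and 9.80 FPKM (-0.86). Its partner subunits GATC and GATB had changes of -0.47 and -0.27. TUFM, the elongation factor that carries charged tRNAs to the mitochondrial ribosome, had 33.8 and 19.3 FPKM (-0.80). TRNT1, which adds the CCA end to tRNAs, had a change of -0.77, and MTFMT, which formylates the initiator methionyl-tRNA made by MARS2, one of -0.67. The list median was -0.65, below that of the mitochondrial synthetases themselves.

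Of 27 measured genes for tRNA maturation, modification and delivery, 25 were lower, or 24 under each other scaling tried, and 12 of these by 1.5-fold (7 under equal column sums), with a median of -0.53. Among all genes, 56.4% lay below 0 as deposited. The shares of all genes lower by 1.5-fold were 11.2% as deposited and 4.99% under equal column sums. TRMT61A, of a tRNA adenine methyltransferase, was the lowest (1.07 and 0.325 FPKM, -1.45). NSUN2, a tRNA cytosine methyltransferase, had 52.2 and 24.4 FPKM (-1.09). DTD2 and AARSD1, which remove wrongly attached amino acids, had changes of -1.02 and -0.85. XPOT, the tRNA exporter, had a change of -0.44. SEPSECS, of selenocysteine synthesis, was the highest (0.02).

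Genes of the amino acid response were mixed. Among 26 such genes past the FPKM limit, 20 lay below 0, and 6 were lower and 4 higher by 1.5-fold, with a median of -0.36. Of all genes, 56.4% lay below 0, and 11.2% were lower and 9.95% higher by that fold. Under equal column sums 15 lay below 0, and 2 were lower and 5 higher by that fold. The shares of all genes were then 4.99% lower and 18.6% higher, so the count of higher genes lay near that share. ATF4 itself had 330 FPKM in normoxia and 191 in hypoxia (-0.79), and SLC7A11, the cystine transporter, had 18.8 and 4.99 (-1.89). ASNS, asparagine synthetase, was nearly level with 57.6 and 55.4 FPKM (-0.06). The higher genes were PHGDH (0.59), STC2 (1.12), DDIT4 (1.86) and VLDLR, with 0.356 FPKM in normoxia and 3.13 in hypoxia (2.82, which depends on the added 0.1). DDIT4 and VLDLR are also known targets of hypoxia-inducible factors. ATF4 protein was not measured by these libraries.

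**Figure D3:**
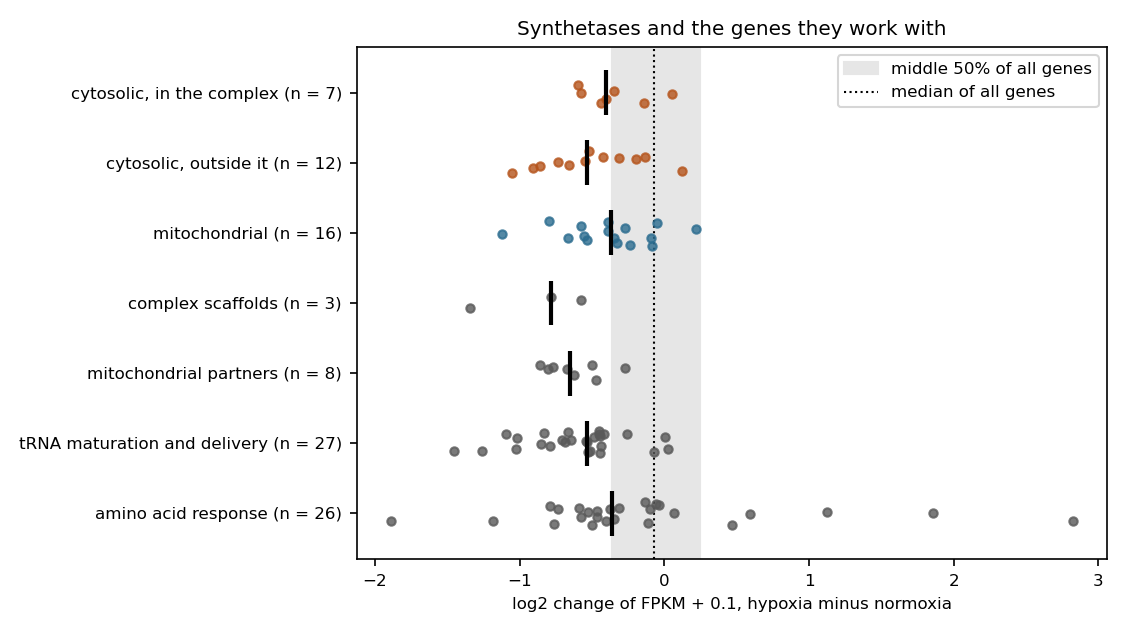
Log2 changes of FPKM plus 0.1 in synthetase groups and in 4 lists of genes that work with them, 1 point per gene, with group medians as black bars, the median of all genes dotted and their middle 50% (-0.36 to 0.24) shaded. Group medians lie between -0.78 for the scaffolds and -0.36 for the amino acid response.

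The 35 genes were represented by 58 listed transcripts, and 22 genes by 1 transcript. In 12 genes more than 1 transcript exceeded a mean of 0.5 FPKM. In no gene did the leading transcript differ between the conditions. Transcripts of KARS1 separate its products, since NM_005548 encodes the cytosolic and NM_001130089 the mitochondrial form of the lysine enzyme. The cytosolic form had 256 FPKM in normoxia and 168 in hypoxia (-0.61), and the mitochondrial form had 22.4 and 15.8 (-0.50). The mitochondrial form made up 8.05% of KARS1 FPKM in normoxia and 8.60% in hypoxia, so that both forms were lowered to a similar degree.

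Transcripts moved in different directions in WARS1, HARS2 and CARS1. In WARS1, the most abundant NM_173701 had 57.0 and 47.3 FPKM (-0.27) and NM_213645 had 31.2 and 24.1 (-0.37). NM_004184 had 11.8 FPKM in normoxia and 14.7 in hypoxia (0.32), and NM_213646 had 4.56 and 4.94 (0.11). The share of NM_004184 was thus 11.3% in normoxia and 16.2% in hypoxia. In HARS2, the minor NM_001278732 had 0.928 and 1.29 FPKM (0.43), while NM_012208, with over 95% of the gene's FPKM in either condition, had -0.12. In CARS1, the noncoding NR_036542 was level (0.02) and the coding transcripts had -0.14 and -0.15. FPKM of overlapping transcripts rests on how the authors' software divided shared fragments, and no error for that division was used here.

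The IARS1 transcripts were both lower but not equally, with -0.32 for NM_002161 and -0.70 for NM_013417, so that the share of the latter was 23.9% in normoxia and 19.5% in hypoxia. In TARS1, NM_001258437 made up 96.4% and 97.1% of the FPKM. In HARS1, NM_001289094 made up 75.9% and 81.0% and changed by -0.56, which is short of 1.5-fold, and NM_002109 changed by -0.92. The call of HARS1 at 1.5-fold thus came from its minor transcripts together with the leading one.

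Levels of the synthetases went with the GC content of their transcripts. GC content was taken from the canonical GENCODE transcript of each gene. Across the 35 genes, Pearson's r between GC content and log2 normoxia FPKM was -0.68 and Spearman's rho was -0.65, and across 11055 genes these were -0.35 and -0.36. The points share the same pooled libraries, and no test was made. FARSA, VARS1 and SARS2, with 61.3%, 61.7% and 61.4% GC, had 6.65, 4.02 and 2.24 FPKM in normoxia, whereas FARSB, with 40.0% GC, had 52.0 FPKM. VARS1 and VARS2 were listed only on haplotype sequences, where reads can also match other versions of the region. The correlations were not computed without them. The change in hypoxia did not go with GC content in the same way, with r of 0.06 over the synthetases and 0.006 over all genes. The part of GC content in the levels was not tested.

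**Figure D4:**
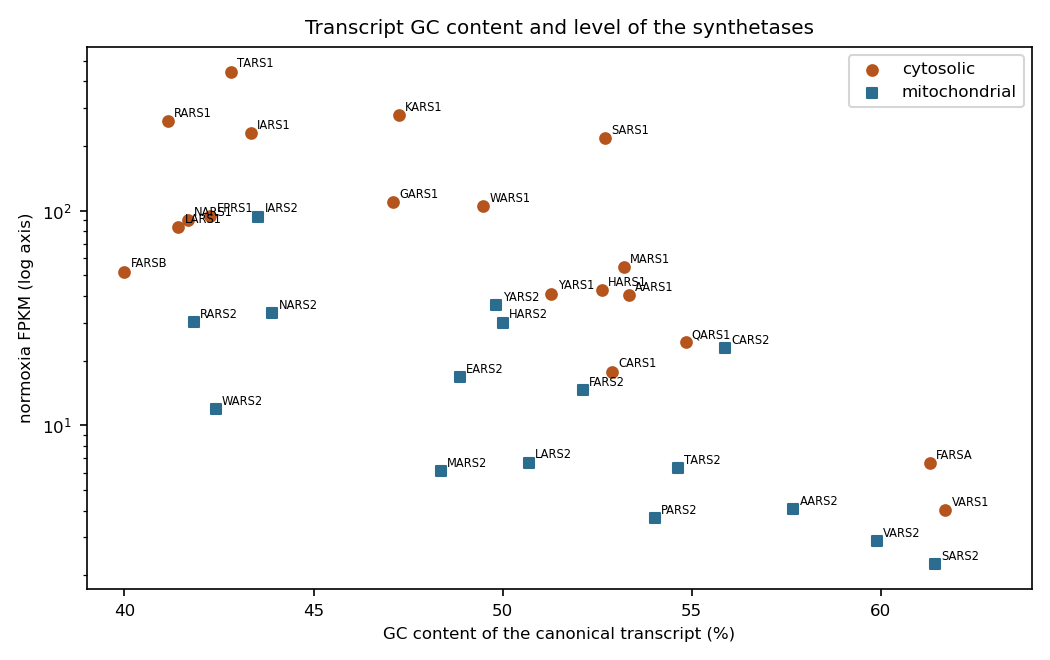
GC content of the canonical transcript (percent) against normoxia FPKM (log axis) for 19 cytosolic (circle) and 16 mitochondrial (square) synthetase genes. The genes above 57% GC all lie below 7 FPKM, and among them VARS1 and VARS2 are listed only on haplotype sequences.

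The values of the whole table bear on these results as follows. The listed FPKM summed to 536005 in normoxia and 458431 in hypoxia, and scaling the columns to equal sums added 0.21 to 0.23 to the log2 changes of the synthetases and moved the median of all genes to 0.15. Relative to the median of all genes, the cytosolic median was -0.37 and the mitochondrial median -0.30 as deposited, and with quantile normalization they were -0.26 and -0.34. Of 8 squamous epithelial markers, 7 were listed, from 3.26 to 442 FPKM, with KRT14 not listed. Of 11 markers of leukocytes, endothelium and fibroblasts, CD14 and COL3A1 had at most 0.132 FPKM and CDH5 had 4.78 and 2.83 FPKM, and the others were not listed. CA9, a target of hypoxia-inducible factors, had 0.694 FPKM in normoxia and 21.6 in hypoxia.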

How the data were processed

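RNA of 8 SQ20B libraries, 4 per condition, was measured by stranded poly(A)+ sequencing. The authors aligned reads with STAR 2.3.0.1 to RefSeq hg19 and used Cufflinks 2.1.1 with standard parameters (versions also in the submitters' processing notes), and deposited FPKM values, 1 per transcript and condition. Log2 fold changes, test statistics, p-values and q-values of the authors' own comparison are in the same table and were not used. Depth per library was not analysed here, so no interval is given.

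The table held 24812 entries, of which 24293 (97.9%) were paired with symbols through RefSeq (assembly GRCh38.p14, names only), and 15 identifiers occurred more than once. FPKM was summed per gene, 0.1 was added before log2, and genes needed a mean of 0.5 FPKM. With 1 value per condition, called means a change of at least 1.5-fold. Coordinates of transcripts are those of the deposited table (hg19, counted from 1) and cover all genes that Cufflinks joined in a locus. Gene models were GENCODE 44 lifted to GRCh37. The genes named are all members, with levels for those past 1.5-fold, the extremes, the most abundant and MARS1, and counts with extremes for the lists. Further genes in the lists, all other members' values and the neighbours were chosen after values were seen. The values of 1 gene of the tRNA maturation list are not reported here. The members and lists were chosen with earlier results of these data known. The calculation was tested on simulated data. Other pseudocounts, FPKM limits, scalings, folds and transcript choices were tried. Python 3.11.15, numpy 2.4.6, pandas 2.3.3 and matplotlib 3.10.9 were used.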

Additional observations from a re-analysis of the deposited data

How the results depend on the processing

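No paired analysis was possible because each condition was available as 1 pooled value, and for the same reason no library could be left out. Scaling had the largest effect among the alternatives to normalization. With columns scaled to equal sums, the median log2 change was -0.21 for the cytosolic and -0.15 for the mitochondrial genes, and 3 cytosolic and 1 mitochondrial genes were past 1.5-fold, against 4.99% of all genes at least 1.5-fold lower. This scaling raised the changes of the synthetases by 0.21 to 0.23. With quantile normalization, the cytosolic median was -0.25, it exceeded the mitochondrial median by 0.083, and 3 cytosolic genes were past 1.5-fold, against 8.44% of all genes lower by that fold. At 1.2-fold, 14 cytosolic and 11 mitochondrial genes were past the limit, against 33.0% of all genes lower by that fold, and at 2-fold 1 and 1, against 2.62%. Pseudocounts of 0.01 and 1, no FPKM limit, a limit of 1 FPKM and coding transcripts alone left each of the 35 genes on its side of 0 and of 1.5-fold. KARS1 lost the 1.5-fold call when changes were centred on the median of all genes (-0.53), and HARS1 when its leading transcript alone was used (-0.56). Leaving out transcripts on haplotype sequences, an alternative chosen after seeing the data, removed VARS1 and VARS2 and left 5 cytosolic and 3 mitochondrial genes past 1.5-fold. The authors' test columns were not used and the pooled values hold no spread between libraries, so how a change near 1.5-fold compares with replicate variation was not tested.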
